A study of Mus musculus with 15 samples.

Results

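Coupling factors are signals that osteoclasts have been reported to release toward bone-forming cells. The 9 genes described here, called coupling factors below, encode such signals or, for Sphk1, an enzyme that makes one. They are Pdgfa, Pdgfb, Sphk1, Cthrc1, Slit3, Bmp2, Bmp6, Hgf and Igf1. They were chosen by gene symbol and make up 9 of the 20089 genes with complete values in the table. They were measured by RNA sequencing in 15 libraries of bone marrow derived macrophages (BMDMs) from wild-type C57BL/6 mice, cells that can become either inflammatory macrophages or osteoclasts. The study set macrophages driven toward osteoclasts beside macrophages activated by a bacterial product. All cells received M-CSF, the growth factor that keeps macrophages alive. The 3 control libraries had M-CSF alone, 3 libraries each had RANKL, the cytokine that induces osteoclasts, for 4 h or 72 h (3 days in the labels), and 3 each had lipopolysaccharide (LPS), which activates macrophages through a Toll-like receptor, for 4 h or 72 h. Cells kept in M-CSF alone for as long as the 72 h groups were not analysed here, so the effect of the stimulus and of the longer culture cannot be told apart against control. The labels do not say whether the replicates were separate mice or cultures, so p-values measure the spread between these libraries, which may be technical.

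In bone remodelling, osteoclasts dissolve old bone and osteoblasts then fill the cavity with new bone, and coupling factors are the signals thought to link the steps. PDGF-BB, the dimer of the Pdgfb product, recruits mesenchymal progenitors and vessel-forming cells, and sphingosine 1-phosphate, the lipid made by sphingosine kinases, acts on receptors of osteoblast lineage cells. BMPs drive osteoblast differentiation through SMAD signalling, while HGF and IGF-1 act through receptor tyrosine kinases on many cell types, osteoblasts included.

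Levels are given as FPKM, the number of fragments scaled to transcript length and to the mapped fragments of the library. A gene was called changed when its fold change on the log2(FPKM + 0.1) scale was above 1.5 or below 0.66 and its limma p-value, adjusted by the Benjamini-Hochberg method over the 11743 genes whose mean reached 0.1 FPKM, was below 0.05. The added 0.1 understates the change of genes at low level. Of the 9 coupling factors, 8 passed that filter and Bmp6 did not. The labels' cell types were checked first. With 72 h of RANKL, 9 of 10 osteoclast markers (Ctsk and Acp5 among them) were higher than in control, and their summed level was 1721 to 5474 FPKM against 155 to 280 FPKM in control. After 4 h of LPS, 10 of 10 LPS response markers rose. Macrophage markers were high in all libraries, with summed levels from 6046 to 17491 FPKM. Markers of other cells were also present: stromal and fibroblast markers summed to between 133 and 2278 FPKM, and neutrophil and precursor markers to between 119 and 14197 FPKM. In bulk RNA, fewer cells of a type and less RNA per cell cannot be told apart.

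**Figure D1:**
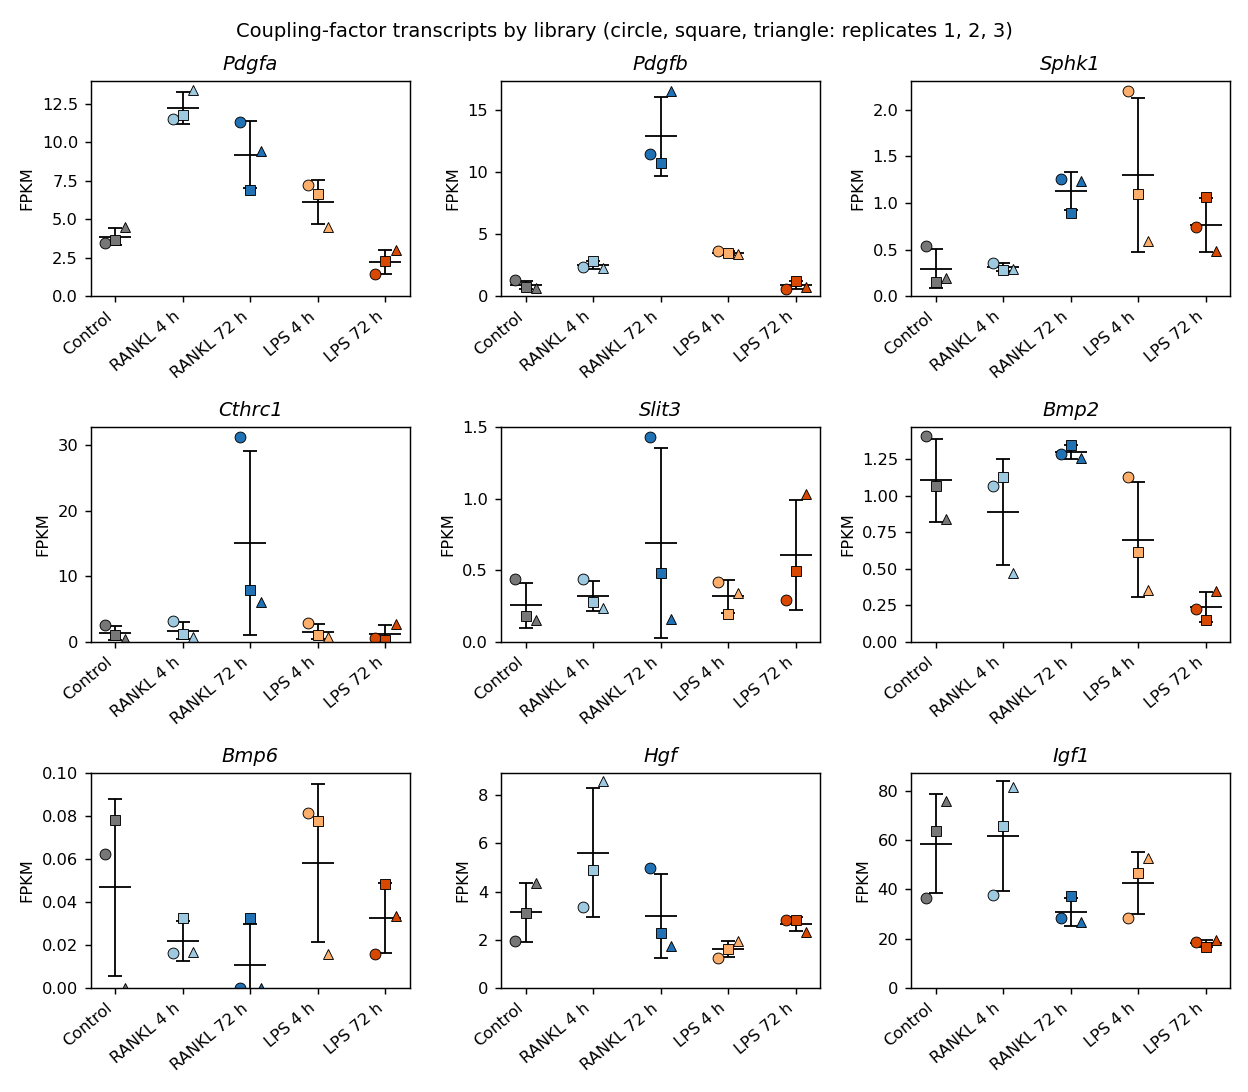
FPKM of the 9 coupling factors in each of the 15 libraries, 1 panel per gene on its own linear axis starting at 0; symbols are libraries (circle, square and triangle for replicates 1, 2 and 3), the horizontal bar is the mean of 3 and the whiskers are 1 SD, cut at 0 where they would pass it. Pdgfb and Cthrc1 were highest after 72 h of RANKL, Pdgfa was highest after 4 h of RANKL, and Igf1 was lowest after 72 h of LPS.

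After 72 h of RANKL, 5 of the 8 tested coupling factors had changed against control, where 24.2% of all tested genes were called. Pdgfb, Cthrc1, Sphk1 and Pdgfa were higher and Igf1 was lower, whereas Bmp2, Slit3 and Hgf did not pass the test. After 4 h of RANKL only Pdgfa passed, in a comparison in which 14 genes, 0.119% of those tested, were called (24 with the replicate number as a block). LPS changed 3 of the 8 at 4 h, where 48.1% of genes were called, and 4 of the 8 at 72 h, where 27.4% were called. The median tested gene moved by 0.16 (log2) after 72 h of RANKL, by -0.52 after 4 h of LPS and by 0.08 after 72 h of LPS. The median over the 8 factors was 1.04 after 72 h of RANKL, 0.29 after 4 h of LPS and -0.30 after 72 h of LPS. With 3 libraries against 3, an exact two-sided permutation test cannot go below p = 0.1, the value reached wherever the groups below are said not to overlap in a changed factor.

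**Figure D2:**
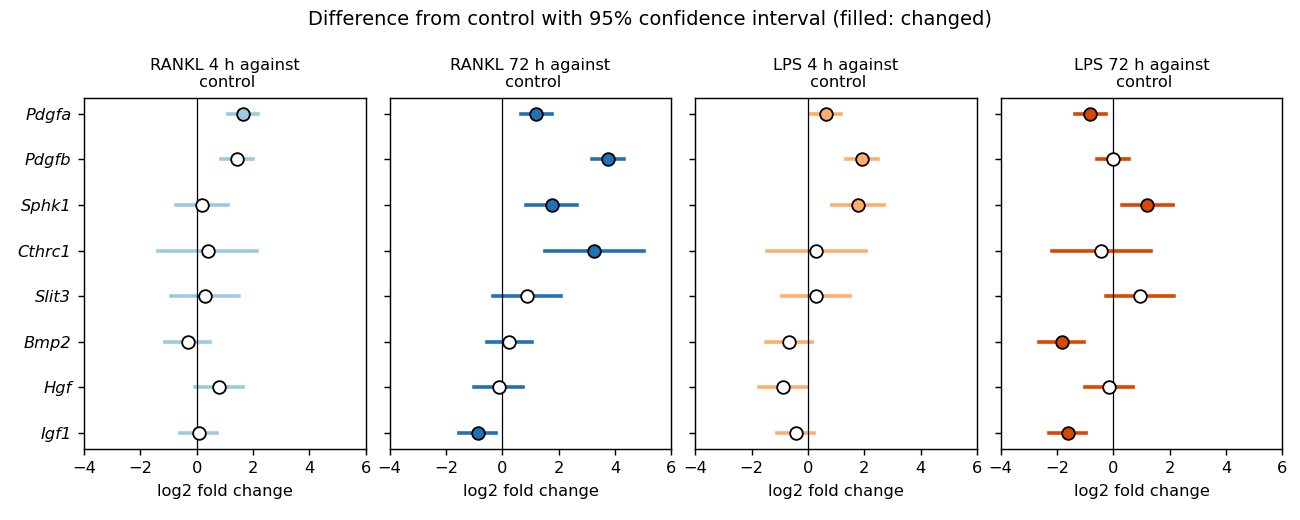
Difference of each stimulated group from control on the log2(FPKM + 0.1) scale for the 8 tested coupling factors, with 95% confidence intervals from the limma fit; filled points are changed and open points are not. Pdgfb after 72 h of RANKL has the largest difference, 3.74, and Bmp2 after 72 h of LPS the lowest, -1.83.

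Pdgfb encodes the PDGF-B chain (chromosome 15, 79995874 to 80014977, minus strand, GRCm38). Its level was 1.27, 0.709 and 0.677 FPKM in the control libraries and 2.37, 2.84 and 2.26 FPKM after 4 h of RANKL. At 72 h of RANKL it was 11.4, 10.7 and 16.5 FPKM. All 3 late RANKL libraries stood above every other library of the series. After 4 h of LPS the level was 3.65, 3.48 and 3.35 FPKM, and after 72 h of LPS it was 0.610, 1.24 and 0.774 FPKM. The early LPS libraries lay above all controls, whereas the late LPS libraries overlapped the controls, with 1 below all of them. The rise after 72 h of RANKL was 13.4-fold (log2 difference 3.74 ± 0.27 SE, limma adjusted p = 8.67e-07). The rise after 4 h of LPS was 3.78-fold (log2 difference 1.92 ± 0.27 SE, limma adjusted p = 4.16e-05), and between 4 h and 72 h of LPS Pdgfb fell by 1.93 on the log2 scale (limma adjusted p = 2.49e-05), in a comparison in which 58.1% of genes were called. At 72 h Pdgfb was 13.5-fold higher with RANKL than with LPS (log2 difference 3.76 ± 0.27 SE, limma adjusted p = 3.9e-07), where 36.1% of genes were called. From 4 h to 72 h of RANKL it rose 4.93-fold (limma adjusted p = 5.17e-05), and in that comparison 23.3% of genes were called.

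The early response of Pdgfb to RANKL was a log2 difference of 1.44 (95% confidence interval 0.87 to 2.01), in groups that did not overlap, but with a limma adjusted p of 0.069 it did not pass. It passed in 1 of 25 alternative fits, the one without the first control library (log2 difference 1.70, limma adjusted p = 0.027), and its adjusted p ran up to 0.369 in the others. By the unadjusted p of the same fit, the criterion that the study's methods name, 2 of the 8 factors passed at 4 h of RANKL, Pdgfa and Pdgfb, beside 2.56% of all tested genes. From the highest, the order of Pdgfb means was 72 h RANKL at 12.9 ± 3.17 FPKM (SD, n = 3), 4 h LPS at 3.49 ± 0.148, 4 h RANKL at 2.49 ± 0.311, control at 0.884 ± 0.331 and 72 h LPS at 0.874 ± 0.326. The first step in that order passed the test (log2 difference 1.82, limma adjusted p = 3.36e-05), in a comparison in which 64.4% of genes were called. The others did not: 4 h RANKL against 4 h LPS differed by -0.48 (95% confidence interval -1.05 to 0.09), and 72 h LPS against control by -0.02 (-0.59 to 0.55). With all genes centred on the median gene, Pdgfb was lower with RANKL than with LPS at 4 h by 1.05 on the log2 scale and passed the test (limma adjusted p = 0.00931), in the comparison in which 50.0% of genes were called without centring.

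Platelets and megakaryocytes are a known source of PDGF-B. Of 6 megakaryocyte and platelet markers, 5 were lower after 72 h of RANKL than in control, and their summed level was 268 to 429 FPKM against 663 to 774 FPKM. Among the late RANKL libraries, the one with the most Pdgfb (16.5 FPKM) had the least stromal marker RNA (505 FPKM summed, against 1064 and 2278 FPKM) and the most osteoclast marker RNA (5474 FPKM, against 1721 and 3168 FPKM). Over all 15 libraries Pdgfb and the mean log2 level of the stromal markers had a Pearson r of 0.62, a description over libraries that share groups. The part of stromal or platelet RNA in the Pdgfb difference was not tested.

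Pdgfa encodes the PDGF-A chain, which forms AA homodimers or AB heterodimers (chromosome 5, 138976014 to 138997370, minus strand, GRCm38). Its level was 3.48, 3.63 and 4.49 FPKM in control, 11.5, 11.8 and 13.4 FPKM after 4 h of RANKL and 11.3, 6.91 and 9.44 FPKM after 72 h of RANKL. All 6 RANKL libraries lay above the controls. After LPS it was 7.23, 6.67 and 4.53 FPKM at 4 h and 1.44, 2.27 and 2.98 FPKM at 72 h. The 4 h LPS libraries lay above the controls, the lowest by a narrow margin, and the 72 h LPS libraries lay below them. Pdgfa was thus raised early by RANKL, 3.12-fold (log2 difference 1.64 ± 0.25 SE, limma adjusted p = 0.0302), and stayed 2.32-fold above control at 72 h (log2 difference 1.21 ± 0.25 SE, limma adjusted p = 0.00309). By size it was the fourth among the 14 genes called at 4 h of RANKL, after Smad6, Id3 and Tmeff1. The 4 h call was not made in 8 of the 15 fits that each left out a library, among them every fit without a library of the compared groups, where the limma adjusted p reached 0.191 while the log2 difference stayed between 1.57 and 1.75. Between 72 h and 4 h of RANKL the log2 difference was -0.43 (95% confidence interval -0.97 to 0.12) and did not pass.

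With LPS, Pdgfa rose 1.55-fold at 4 h (log2 difference 0.64 ± 0.25 SE, limma adjusted p = 0.0429) and fell by 0.82 on the log2 scale at 72 h (limma adjusted p = 0.0226). The 4 h call held in 12 of 25 alternative fits and in 6 of the 15 that left out a library. It was lost with the replicate number as a block (limma adjusted p = 0.0501), and its adjusted p was highest, 0.145, without the first early LPS library (log2 difference 0.51). The log2 difference was largest, 1.20 (limma adjusted p = 0.0026), with all genes centred on the median gene. The 72 h call was lost without the first LPS library (log2 difference -0.55, limma adjusted p = 0.111) or without the third control library (-0.71, limma adjusted p = 0.078). RANKL gave more Pdgfa than LPS at both times, 2.01-fold at 4 h (limma adjusted p = 0.00364) and 4.09-fold at 72 h (log2 difference 2.03 ± 0.25 SE, limma adjusted p = 2.65e-05). The 4 h difference dropped to 0.44 (limma adjusted p = 0.218) when all genes were centred on the median gene. Within LPS, Pdgfa fell by 1.45 on the log2 scale from 4 h to 72 h (limma adjusted p = 0.000187). From the highest, Pdgfa means were 12.2 ± 1.0 FPKM (SD, n = 3) after 4 h of RANKL, 9.23 ± 2.22 after 72 h of RANKL, 6.14 ± 1.42 after 4 h of LPS, 3.87 ± 0.543 in control and 2.23 ± 0.771 after 72 h of LPS. The neighbours 72 h RANKL and 4 h LPS did not differ by the test (log2 difference 0.58, 95% confidence interval 0.04 to 1.12, limma adjusted p = 0.0524).

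Among the other 5 PDGF genes tested, 0 passed at 4 h of RANKL by limma, by its unadjusted p or by limma voom on recovered fragments. At 72 h of RANKL, Pdgfc, another ligand, fell by 1.01 on the log2 scale (limma adjusted p = 0.0305), and Pdgfrb, the receptor that binds PDGF-BB, rose by 1.09 (limma adjusted p = 0.044). The Pdgfc call was lost in 5 and the Pdgfrb call in 10 of 25 alternative fits. Pdgfc was above Pdgfa and Pdgfb per unit length in control, at 13.9 ± 2.75 FPKM (SD, n = 3), and was 7.56 ± 4.62 FPKM after 72 h of RANKL and 3.42 ± 0.424 FPKM after 72 h of LPS. Pdgfrb, a mesenchymal receptor, was at 1.89 ± 0.54 FPKM in control and 4.48 ± 2.44 FPKM after 72 h of RANKL. In that comparison 9 of the 19 stromal markers described with Cthrc1 were higher as well. The median over these 5 genes was 0.79 after 72 h of RANKL, beside 0.16 over all tested genes, of which 24.2% were called.

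Sphk1 encodes sphingosine kinase 1, the enzyme that makes sphingosine 1-phosphate inside the cell (chromosome 11, 116530925 to 116536674, plus strand, GRCm38). Its level was low, at 0.536, 0.151 and 0.196 FPKM in control and 0.357, 0.280 and 0.296 FPKM after 4 h of RANKL. With 72 h of RANKL it was 1.26, 0.887 and 1.23 FPKM. The late RANKL libraries lay above all control and early RANKL libraries. After LPS it was 2.20, 1.10 and 0.586 FPKM at 4 h and 0.746, 1.06 and 0.484 FPKM at 72 h. The early LPS libraries did not overlap the controls, whereas the third late LPS library lay below the first control. These values rest on 14 to 196 fragments per library, recovered from the steps of the FPKM values. Sphk1 was 3.36-fold higher after 72 h of RANKL than in control (log2 difference 1.75 ± 0.43 SE, limma adjusted p = 0.00762) and 3.43-fold higher after 4 h of LPS (log2 difference 1.78 ± 0.43 SE, limma adjusted p = 0.00271). At 4 h it was lower with RANKL than with LPS by 1.60 on the log2 scale (limma adjusted p = 0.00525), and with 4 h of RANKL it differed from control by 0.18 (95% confidence interval -0.73 to 1.09).

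After 72 h of LPS the log2 difference of Sphk1 from control was 1.20 ± 0.43 SE (limma adjusted p = 0.041), a call that was lost in 12 of 24 alternative fits. At 72 h RANKL and LPS differed by 0.55 (95% confidence interval -0.37 to 1.46, limma adjusted p = 0.314). From 4 h to 72 h of RANKL Sphk1 rose 2.96-fold (limma adjusted p = 0.0145). In the order of means, 4 h LPS at 1.30 ± 0.824 FPKM (SD, n = 3), 72 h RANKL at 1.13 ± 0.208 and 72 h LPS at 0.764 ± 0.289 stood above 4 h RANKL at 0.311 ± 0.0407 and control at 0.294 ± 0.21, and no neighbouring pair passed the test. The closest to passing was 72 h LPS against 4 h RANKL (log2 difference 1.02, limma adjusted p = 0.0835), in a comparison in which 23.9% of genes were called.

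Other genes of the sphingosine 1-phosphate system changed in both directions after 72 h of RANKL, 3 higher and 3 lower among 12 tested. The median over the 12 was -0.18, beside 0.16 over all tested genes, of which 24.2% were called. Spns2, an exporter of sphingosine 1-phosphate, was at 0.356 to 0.772 FPKM in control and at 4.87 to 15.1 FPKM after 72 h of RANKL (log2 difference 3.79 ± 0.43 SE, limma adjusted p = 4.3e-05). With 72 h of LPS it was at 0.0807 to 0.119 FPKM and lower than control by 1.69 on the log2 scale (limma adjusted p = 0.00807). Spns2 was thus higher with RANKL than with LPS at 72 h by 5.48 (log2, limma adjusted p = 7.29e-07), whereas Sphk1 itself did not pass in that comparison. The receptor S1pr3 rose by 2.24 on the log2 scale and the phosphatase Sgpp1 by 0.64 after 72 h of RANKL. In the same comparison Mfsd2b, the exporter of red cells and platelets, fell by 2.89, the leukocyte receptor S1pr4 by 1.72 and the ceramide synthase Cers2 by 0.61. Of 25 alternative fits, the Cers2 call was lost in 6, the S1pr4 call in 3 and the Sgpp1 call in 2. The other kinase, Sphk2, was at 27.1 ± 1.37 FPKM in control (SD, n = 3), above Sphk1 per unit length. At 4 h of RANKL 0 of the 12 passed by limma or limma voom, with an unadjusted p below 0.05 for 2. At 4 h of LPS 1 was higher and 7 were lower, with a median of -0.81. Over all tested genes that median was -0.52, and 48.1% were called.

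Cthrc1 encodes a secreted protein with a short collagen-like stretch (chromosome 15, 39076932 to 39087121, plus strand, GRCm38). Its level was 2.54, 1.02 and 0.481 FPKM in control, 3.15, 1.21 and 0.792 FPKM after 4 h of RANKL and 31.2, 7.86 and 6.08 FPKM after 72 h of RANKL. The late RANKL libraries did not overlap any other group, but the first was far above the others. After LPS the level was 2.82, 1.08 and 0.831 FPKM at 4 h and 0.565, 0.272 and 2.73 FPKM at 72 h. Both LPS groups overlapped the controls. The rise after 72 h of RANKL was 9.65-fold (log2 difference 3.27 ± 0.82 SE, limma adjusted p = 0.00879), and without the first late RANKL library the log2 difference was 2.55 (limma adjusted p = 0.0415). RANKL exceeded LPS at 72 h by 3.70 ± 0.82 SE on the log2 scale (limma adjusted p = 0.00231), and 72 h of RANKL exceeded 4 h by 2.89 (limma adjusted p = 0.0178). The last call was lost without the first late RANKL library (log2 difference 2.17, limma adjusted p = 0.0779), without the second early RANKL library (2.76, limma adjusted p = 0.0523) or without the third (2.48, limma adjusted p = 0.0631). Means were 15 ± 14 FPKM (SD, n = 3) after 72 h of RANKL and between 1.19 and 1.72 FPKM in the other 4 groups, none of which passed against its neighbour in the order.

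Cthrc1 varied between libraries of a group together with stromal RNA. Of 19 stromal and fibroblast markers, 9 were higher and 0 lower after 72 h of RANKL, Col1a1 and Sparc among the 9. In that comparison 24.2% of all tested genes were called. The other 10 markers did not pass, with log2 differences from -1.0 for Dcn and -0.63 for Kitl through 0.18 for Lepr to 1.5 for Col6a1. The median log2 difference over the 19 was 1.41, and all 19 were detected in each group. Their summed level was 422, 262 and 192 FPKM in the control libraries and 2278, 1064 and 505 FPKM after 72 h of RANKL. It was 429, 283 and 227 FPKM after 4 h of RANKL and 395, 264 and 204 FPKM after 4 h of LPS. In the late LPS group it was 133, 137 and 583 FPKM, and there too the library with the most stromal RNA, the third, had the most Cthrc1. Over the 15 libraries, Cthrc1 and the mean log2 level of these markers had a Pearson r of 0.95, a description over libraries that share groups and replicate numbers. For the other factors this r was 0.67 for Slit3, 0.66 for Bmp2, 0.62 for Pdgfb, 0.48 for Pdgfa, 0.34 for Sphk1 and between -0.14 and -0.04 for Igf1, Bmp6 and Hgf. The part of stromal RNA in the Cthrc1 difference was not tested.

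**Figure D3:**
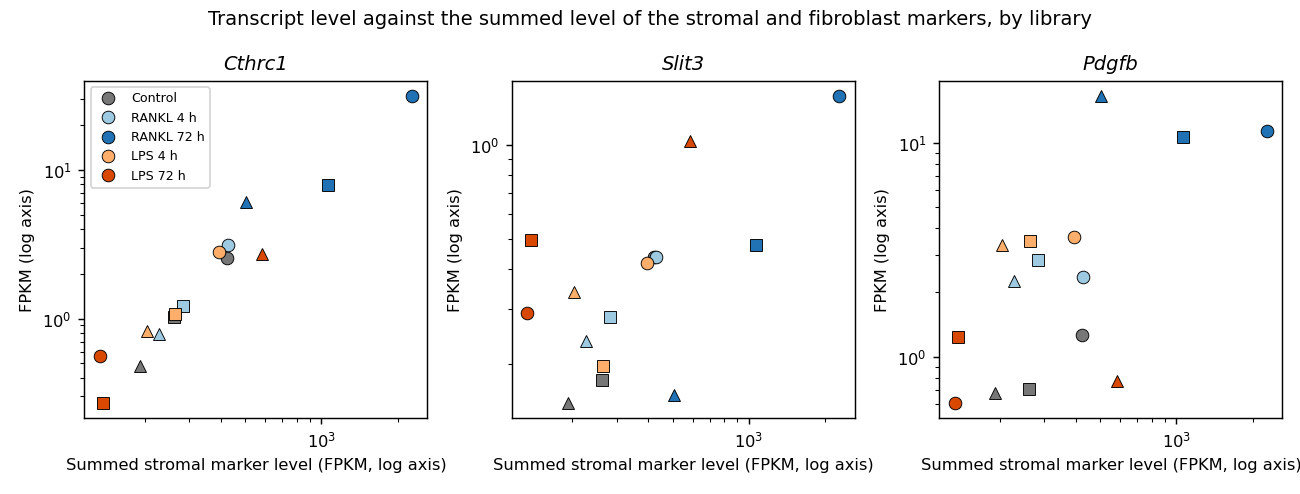
FPKM of Cthrc1, Slit3 and Pdgfb (vertical, log axis) against the summed FPKM of 19 stromal and fibroblast markers (horizontal, log axis) in each of the 15 libraries; colours are groups and circle, square and triangle are replicates 1, 2 and 3. Cthrc1 rises with the stromal level, with differences between libraries of like stromal level. The third late RANKL library had 6.08 FPKM of Cthrc1 at a stromal level of 505 FPKM. The third late LPS library had 2.73 FPKM at 583 FPKM. The 3 late RANKL libraries stand highest for Pdgfb at stromal levels from 505 to 2278 FPKM.

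Slit3 encodes a secreted guidance protein that binds ROBO receptors (chromosome 11, 35121224 to 35708507, plus strand, GRCm38). Its level was 0.438, 0.178 and 0.150 FPKM in control and 0.437, 0.282 and 0.237 FPKM after 4 h of RANKL. At 72 h of RANKL it was 1.43, 0.478 and 0.159 FPKM. The first late RANKL library, which had the most stromal RNA, was alone above 1.03 FPKM, and the third lay among the controls. After LPS it was 0.420, 0.196 and 0.340 FPKM at 4 h and 0.291, 0.496 and 1.03 FPKM at 72 h. Slit3 passed in none of the comparisons. Its log2 difference from control was 0.87 after 72 h of RANKL (95% confidence interval -0.33 to 2.07) and 0.94 after 72 h of LPS (-0.26 to 2.14), from 15 to 140 fragments per library. The part of stromal RNA in the Slit3 values was not tested. Of 7 other SLIT and ROBO genes tested, 2 were higher after 72 h of RANKL, with a median of 0.82 over the 7. In that comparison 24.2% of all tested genes were called, with a median of 0.16. The 2 were the cytoskeletal ROBO partners Srgap3 (log2 difference 3.72, limma adjusted p = 2.72e-05) and Srgap1 (0.88, limma adjusted p = 0.0338, lost in 7 of 24 alternative fits). Srgap3 went from 0.374 to 0.765 FPKM in control to 4.42 to 13.7 FPKM after 72 h of RANKL. The receptor Robo1 was at 0.0703 ± 0.00888 FPKM in control and 0.229 ± 0.126 FPKM after 72 h of RANKL (SD, n = 3). It did not pass (log2 difference 0.87, limma adjusted p = 0.0514).

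Bmp2 encodes a bone morphogenetic protein that induces bone (chromosome 2, 133552159 to 133562885, plus strand, GRCm38). Its level was 1.41, 1.07 and 0.841 FPKM in control, 1.07, 1.13 and 0.471 FPKM after 4 h of RANKL and 1.29, 1.35 and 1.26 FPKM after 72 h of RANKL. Both RANKL groups overlapped the controls. After LPS it was 1.13, 0.614 and 0.357 FPKM at 4 h and 0.224, 0.150 and 0.351 FPKM at 72 h. The late LPS libraries lay below every other library. Bmp2 fell by 1.83 on the log2 scale after 72 h of LPS (SE 0.38, limma adjusted p = 0.00211), a 3.57-fold lower level on that scale, and it was 4.23-fold higher with RANKL than with LPS at 72 h (log2 difference 2.08 ± 0.38 SE, limma adjusted p = 0.000529). Late RANKL differed from control by 0.24 (95% confidence interval -0.56 to 1.05). Between 4 h and 72 h of LPS it fell by 1.15 (limma adjusted p = 0.0144). That call was lost without the first early LPS library (log2 difference -0.78, limma adjusted p = 0.0809) or without the second late LPS library (-0.95, limma adjusted p = 0.0635). The means ran from 1.30 ± 0.046 FPKM after 72 h of RANKL through 1.11 ± 0.287 in control, 0.892 ± 0.366 after 4 h of RANKL and 0.702 ± 0.396 after 4 h of LPS to 0.242 ± 0.102 after 72 h of LPS (SD, n = 3). Only the last step in that order passed. The stromal markers were higher with RANKL than with LPS at 72 h for 12 of 19 and lower for 1, and their part in the Bmp2 difference was not tested.

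Bmp6, which encodes another bone-inducing ligand (chromosome 13, 38345107 to 38500302, plus strand, GRCm38), was close to undetected. Its level was between 0 and 0.0814 FPKM, from 0 to 5 fragments per library. No library of any group stood apart, and a difference was not detectable at this depth.

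After 4 h of RANKL, where 0.119% of all tested genes were called, 3 of the 17 tested genes of BMP ligands, receptors and antagonists rose. These were Smad6 (log2 difference 3.67 ± 0.37 SE, limma adjusted p = 0.00145), Id3 (2.54 ± 0.32 SE, limma adjusted p = 0.00886) and Smad7 (1.51 ± 0.26 SE, limma adjusted p = 0.0449), an inhibitory SMAD, a target gene of BMP signalling and another inhibitory SMAD. None of these calls was made with only the 2 groups compared (limma adjusted p = 0.0583 for Smad6, 0.212 for Id3 and 0.196 for Smad7). Over 25 alternative fits the call was kept in 24 for Smad6, in 23 for Id3 and in 9 for Smad7. Smad6 went from 0.774 ± 0.446 FPKM in control to 10.2 ± 0.747 FPKM (SD, n = 3), while Bmp2 differed by -0.33 (95% confidence interval -1.14 to 0.47). At 72 h of RANKL, 5 of the 17 were higher and 2 lower, with a median of 0.52. Over all tested genes 24.2% were called there, with a median of 0.16. The receptors Acvr2b (1.32), Acvr2a (1.13), Acvr1 (1.08) and Bmpr1a (0.97, a call lost in 7 of 24 alternative fits) rose on the log2 scale. In the same comparison the target gene Id1 fell by 2.11 and the pseudoreceptor Bambi fell by 0.64. After 72 h of LPS, Acvr1 (0.97) and Acvr2a (0.70, a call lost in 8 of 25 alternative fits) also rose and Bambi (-0.97) also fell against control. Between RANKL and LPS at 72 h, Acvr2b was higher with RANKL (1.19, limma adjusted p = 0.0022). Acvr1 (0.11), Acvr2a (0.42) and Bmpr1a (0.55) did not pass there. With 72 h of LPS, 7 of the 17 were higher and 1 lower than in control, with a median of 0.48. Over all tested genes 27.4% were called there, with a median of 0.08.

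Hgf encodes hepatocyte growth factor, the ligand of the receptor MET (chromosome 5, 16553495 to 16620152, plus strand, GRCm38). Its level was 1.93, 3.12 and 4.35 FPKM in control, 3.37, 4.90 and 8.58 FPKM after 4 h of RANKL and 5.0, 2.26 and 1.73 FPKM after 72 h of RANKL. Both RANKL groups overlapped the controls. After LPS it was 1.25, 1.62 and 1.93 FPKM at 4 h and 2.81, 2.83 and 2.33 FPKM at 72 h. All 3 early LPS libraries lay below all 3 early RANKL libraries. Hgf was 3.18-fold higher with RANKL than with LPS at 4 h (log2 difference 1.67 ± 0.40 SE, limma adjusted p = 0.00251), and neither group passed against control. Hgf was higher after 4 h of RANKL than in the control library of the same number for 3 of 3 numbers, which pair these groups. With the number as a block over all 5 groups, the difference did not pass either (log2 difference 0.79, 95% confidence interval -0.10 to 1.68, limma adjusted p = 0.924). That block also spans the 72 h LPS libraries, which the numbers do not pair. After 4 h of LPS, which the numbers also pair with control, Hgf was higher than in control for 0 of 3 numbers. The same held for Igf1 and Bmp2. The pairing of control with 4 h RANKL or 4 h LPS alone was not tested. Without the block, the log2 difference of Hgf from control was 0.79 with 4 h of RANKL (95% confidence interval -0.06 to 1.64). It was -0.88 with 4 h of LPS (-1.73 to -0.03, limma adjusted p = 0.0703). The LPS difference passed in 3 of 25 alternative fits, among them the one without the first control library (log2 difference -1.18, limma adjusted p = 0.0287). With all genes centred on the median gene it was -0.31 (limma adjusted p = 0.548). Centring also lowered the log2 difference of Hgf between RANKL and LPS at 4 h to 1.10, which still passed (limma adjusted p = 0.0293). At 72 h RANKL and LPS differed by 0.03 (95% confidence interval -0.82 to 0.88). From 4 h to 72 h of RANKL the log2 difference was -0.92 (limma adjusted p = 0.0931), and it was -1.36 (limma adjusted p = 0.0198) without the first late RANKL library, the one with the most stromal RNA. Hgf means were 5.62 ± 2.68 FPKM after 4 h of RANKL, 3.13 ± 1.21 in control, 3.00 ± 1.76 after 72 h of RANKL, 2.66 ± 0.283 after 72 h of LPS and 1.60 ± 0.343 after 4 h of LPS (SD, n = 3), and no neighbouring pair passed.

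The receptor Met rose with LPS, from 4.26 ± 1.03 FPKM in control to 23.4 ± 3.39 FPKM at 4 h and 21.1 ± 7.79 FPKM at 72 h (SD, n = 3). Its log2 difference from control was 2.44 at 4 h (limma adjusted p = 8.51e-06) and 2.23 at 72 h (limma adjusted p = 6.99e-05). Of the 5 tested HGF genes, 2 had changed at 72 h of RANKL, where 24.2% of all tested genes were called. The median over the 5 was 0.04, beside 0.16 over all tested genes. Mst1r, the receptor of the HGF-related ligand MSP, was at 0 to 0.0191 FPKM in control and at 7.82 to 21.6 FPKM after 72 h of RANKL (limma adjusted p = 7.94e-08). Spint1, an inhibitor of the proteases that activate HGF, fell by 1.79 on the log2 scale (limma adjusted p = 0.00348).

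Igf1 encodes insulin-like growth factor 1 (chromosome 10, 87858265 to 87937042, plus strand, GRCm38) and had the highest FPKM of the 9 factors in every library except the first late RANKL library, where Cthrc1 was higher. Its level was 36.3, 63.7 and 75.8 FPKM in control, 37.5, 65.7 and 81.7 FPKM after 4 h of RANKL and 28.2, 37.2 and 26.9 FPKM after 72 h of RANKL. The early RANKL libraries overlapped the controls, and 1 late RANKL library lay within the range of the controls. After LPS it was 28.5, 46.5 and 52.9 FPKM at 4 h and 18.4, 16.4 and 19.4 FPKM at 72 h. The late LPS libraries lay below every other library. With 72 h of LPS Igf1 fell by 1.63 on the log2 scale (SE 0.31, limma adjusted p = 0.00131), a 3.09-fold lower level, and it fell by 1.19 between 4 h and 72 h of LPS (limma adjusted p = 0.0039). With 72 h of RANKL it fell by 0.88 against control (SE 0.31, limma adjusted p = 0.0468) and by 0.94 against 4 h of RANKL (limma adjusted p = 0.0357). The first of these calls was not made in 13 of 25 alternative fits, and over all 25 its log2 difference ran from -1.19 to -0.66. The second call was not made in 6 of 25. With the replicate number as a block both passed (limma adjusted p = 0.00969 and 0.00688). RANKL and LPS did not differ by the test at 72 h (log2 difference 0.75, 95% confidence interval 0.08 to 1.42, limma adjusted p = 0.0626), although the groups did not overlap. Igf1 means fell in the order 4 h RANKL at 61.6 ± 22.4 FPKM, control at 58.6 ± 20.2, 4 h LPS at 42.6 ± 12.7, 72 h RANKL at 30.8 ± 5.63 and 72 h LPS at 18.1 ± 1.51 (SD, n = 3), and no neighbouring pair passed.

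Neutrophil and precursor markers fell in the same groups as Igf1. Of 8 such markers, 5 were lower after 72 h of RANKL and 8 after 72 h of LPS, with summed levels of 999 to 4150 FPKM and 119 to 1115 FPKM against 4759 to 14197 FPKM in control. Across the controls the library with the fewest neutrophil transcripts was the second, whereas the one with the least Igf1 was the first. The part of these cells in the Igf1 difference was not tested.

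At 4 h, 0 of 12 other IGF genes tested passed by limma or limma voom. Their unadjusted p was below 0.05 for 0 with RANKL and for 2 with LPS. After 72 h of RANKL, 4 of the 12 were higher and 0 lower, with a median of 1.12. In that comparison 24.2% of all tested genes were called, with a median of 0.16. Stc2, an inhibitor of the IGFBP protease encoded by Pappa, rose by 3.04 on the log2 scale (limma adjusted p = 0.0015) and Pappa itself by 1.85 (limma adjusted p = 0.0233), to 1.84 ± 1.87 FPKM (SD, n = 3), with 0.579 to 3.99 FPKM among the 3 libraries. The Pappa call was lost in 5 of 24 alternative fits. The adaptor Irs1 rose by 1.62 (limma adjusted p = 0.0081) and Igf2r, which clears IGF-2, by 1.39 (limma adjusted p = 0.00276). In the same comparison 9 of 19 stromal markers were higher, with a median of 1.41, and their part in the IGF gene differences was not tested. The receptor Igf1r was at 2.37 ± 0.624 FPKM in control and 2.57 ± 1.3 FPKM after 72 h of RANKL (SD, n = 3), and did not pass. Among 11 other osteoclast-to-osteoblast signals, 6 were higher and 1 lower after 72 h of RANKL, where 24.2% of all tested genes were called. The median of the 11 was 0.79, beside 0.16 over all tested genes. The largest were Acp5, an osteoclast phosphatase (3.33), the cytokine Lif (2.52) and the ephrins Efna2 (2.34) and Efnb2 (1.65).

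**Figure D4:**
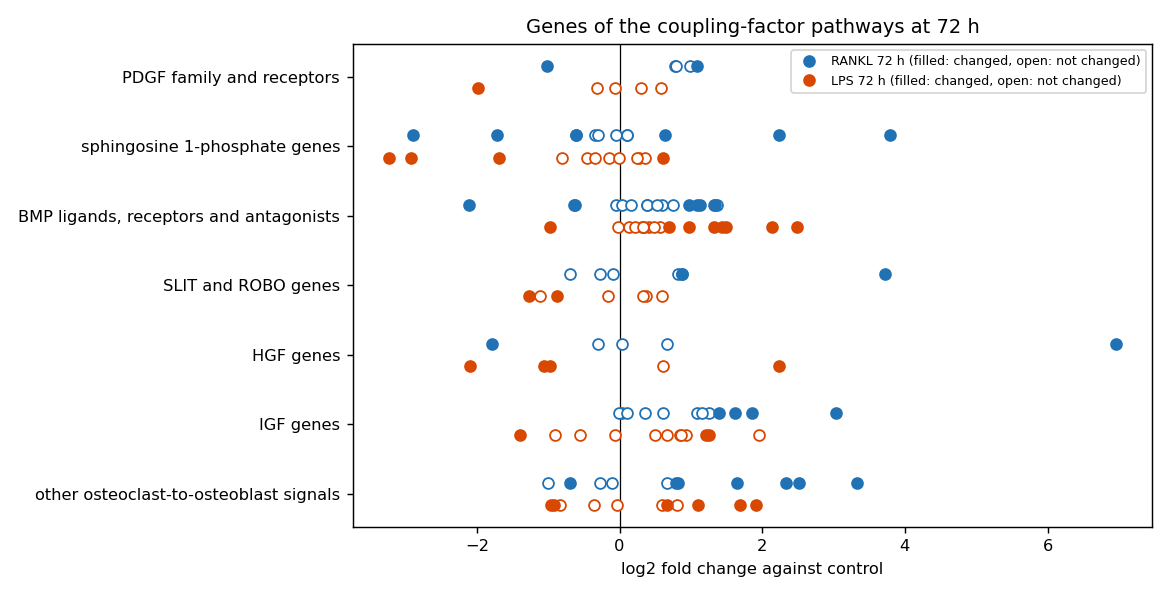
Log2 difference from control at 72 h for the tested genes of 7 lists related to the coupling factors (horizontal axis), blue for RANKL and orange for LPS; each point is a gene, filled where changed. The largest differences with RANKL are those of Mst1r (6.96), Spns2 (3.79) and Srgap3 (3.72).

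The genes whose levels over the 15 libraries were most like those of each factor with a mean of at least 1 FPKM were sought among 9486 genes, on the log2 scale. For Pdgfb they were Adrbk2 (Pearson r = 0.95), Insig1 (0.93) and Rab38 (0.92), and for Pdgfa they were Kcnn4 (0.88), Rpl34-ps1 (0.87), a pseudogene whose reads may come from its parent gene, and Gltscr2 (0.87). For Cthrc1 they were Ppic (0.97), Sparc (0.97) and Col1a1 (0.96), of which Sparc and Col1a1 are among the stromal markers above. For Hgf they were Elf4 (0.90), Myo9b (0.89) and Lyst (0.89), and for Igf1 Lpl (0.92), Cpne2 (0.90) and Mfhas1 (0.89). These are descriptions over libraries that share groups and replicate numbers.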

How the data were processed

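RNA from 15 BMDM libraries was sequenced from SMARTER kits, and the authors deposited 1 table of FPKM values per gene and library. The submitters' processing notes name StringTie and the builds GRCm38.p4 and mm10, and the study's methods name Ballgown. The aligner, its version and the strand setting are not given in the sources used here. GENCODE M21 annotates other genes on the opposite strand within Pdgfa, Pdgfb, Sphk1, Bmp6, Slit3 and Igf1, and without strand their reads cannot be told apart. The table ends in 1 incomplete row, which was dropped, and genes after it in alphabetical order were not analysed here. FPKM is normalised to depth, so a change in total RNA is not seen, and a few abundant genes can shift all others.

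The FPKM values of 14485 genes fell on whole multiples of 1 fragment within a tolerance of 0.01, which gave 18306184 to 20330207 fragments per library on the listed genes. Replicates of 1 group differed by more than sampling noise (chi-square per degree of freedom 22.5 to 133), so none was counted as a repeat. Log2(FPKM + 0.1) of the genes whose mean reached 0.1 FPKM was fitted with limma 3.58.1 (R 4.3.3), all 5 groups in 1 model with a trended prior. Alternatives were another pseudocount, filter, scaling or prior, only the compared groups, the replicate number as a block, the unadjusted p, limma voom on the recovered fragments, and each library left out in turn. The fit was tested on simulated data for 72 h of RANKL against control with 11743 genes and called 172 of 200 changed genes and 6 unchanged genes. Exact permutation tests and figures used Python 3.11.15, numpy 2.4.6 and matplotlib 3.10.9. Positions came from GENCODE M21 (GRCm38).

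Samples with the same replicate number deviated together between control and 4 h RANKL (correlations 0.71 to 0.84), control and 4 h LPS (0.44 to 0.62), control and 72 h RANKL (0.14 to 0.32), 4 h RANKL and 4 h LPS (0.56 to 0.69) and 4 h and 72 h of RANKL (0.16 to 0.25), but not in pairs with 72 h LPS (-0.23 to 0.18). The labels do not say what a number marks. The factors, pathway lists and marker lists were chosen with earlier results of these data known. Named were all 9 factors, from each pathway list the genes changed after 72 h of RANKL (the 4 with the largest change where more than 4 changed, with others chosen after their values were seen), and the 3 genes most like each factor. One gene of the pathway lists that this rule names is not reported here. The B cell list (4 of 6 markers lower after 72 h of RANKL, 5 of 6 after 72 h of LPS) and the endothelial list (1 of 6 and 2 of 6 lower) were also measured. No protein or promoter sequences were used.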

Additional observations from a re-analysis of the deposited data

Results flagged for a closer look

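The effect of a stimulus differed between 4 h and 72 h for several factors, by the limma contrast of the times, in which time and culture length cannot be told apart. With RANKL the log2 difference of 72 h against 4 h was 2.30 for Pdgfb, 1.57 for Sphk1, 2.89 for Cthrc1 and -0.94 for Igf1. With LPS it was -1.45 for Pdgfa, -1.93 for Pdgfb, -1.15 for Bmp2 and -1.19 for Igf1. Pdgfb thus rose with time in RANKL and fell with time in LPS, whereas Igf1 fell with time in both. The difference between the stimuli in their change over time was not tested. Groups of 3 libraries were too small for a test of single outlying libraries.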

How the results depend on the processing

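Of 28 differences called among the coupling factors over 8 comparisons, 19 were called in every alternative fit and 9 were lost in at least 1, and none reversed. Of 36 differences not called, 17 changed sign in at least 1 alternative. The number of factors changed at 4 h of RANKL was 1, and it was 0 with only the 2 groups compared or without the trended prior and 2 by the unadjusted p. After 72 h of LPS it was 4, and it was 2 with only the 2 groups compared or with a mean of at least 1 FPKM, where fewer factors were tested. With 1 library left out it ran from 0 to 1 at 4 h of RANKL, from 2 to 4 after 72 h of LPS and from 2 to 4 for 72 h against 4 h of RANKL, the last falling to 2 without the second or the third early RANKL library. With the replicate number as a block it was 1 at 4 h and 5 at 72 h of RANKL, 2 at 4 h and 4 at 72 h of LPS, and 5 for RANKL against LPS at 72 h, where Igf1 was gained (limma adjusted p = 0.0144) although the numbers did not pair those samples. The block changed no call but these and that of Pdgfa at 4 h of LPS. Over all genes, 14 called at 4 h of RANKL became 0 to 24 over the alternatives, and centring on the median gene lowered the calls at 4 h from 5650 to 3400 for LPS against control and from 5872 to 3485 for RANKL against LPS. The cause was not tested. With a pseudocount of 1, the 3 genes most like Cthrc1 and the 3 most like Hgf each kept 1. Depth limits Sphk1, Slit3, Bmp2 and above all Bmp6.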
